A study of Canis lupus familiaris with 11 samples.

Results

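Proteasome genes were examined in dog cells of the stromal vascular fraction (SVF), the pellet of mixed stromal, vascular and immune cells that remains when adipose tissue is digested. The genes were selected by name: every array feature whose only gene symbol begins with PSMA to PSMG and a digit, with the feature of highest mean over 8 arrays standing for each gene. This gave 46 of 15947 genes. Of these, 44 encode proteasome subunits, caps, an inhibitor or assembly factors, and 2 matched by name only. PSMC3IP acts in meiotic recombination and PSME3IP1 binds an alternative cap. PSMC3, which shares its feature with a further gene, was left out by the rule, and PSMA1, PSMA6 and PSMG4 were not analysed here.

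The proteasome degrades proteins tagged with ubiquitin. Its 20S core stacks rings of alpha subunits, which form the gate, around rings of beta subunits, of which PSMB5, PSMB6 and PSMB7 carry the proteolytic sites. A 19S cap of ATPases (PSMC genes) and non-ATPase subunits (PSMD genes) recognises, deubiquitinates and unfolds substrates. In leukocytes, and in other cells exposed to interferon, PSMB9, PSMB10 and PSMB8 replace PSMB6, PSMB7 and PSMB5 to form the immunoproteasome, which shapes the peptides presented on MHC class I molecules. When proteasome activity is insufficient, cells raise most subunit genes together through the transcription factor NFE2L1.

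Each sample was hybridised to 1 Affymetrix array, 11 in all, and values are log2 expression levels. Dogs 2 and 3 carry the same description, a neutered male German Shepard mix aged 10 years, and 1 company digested their visceral fat. The cells were profiled either untreated, with no incubation (SVF), or after photo-activated platelet-rich plasma and 6 h at 37 degrees (PRP), with 2 arrays for each dog and condition. Plasma and incubation always went together and cannot be told apart. A 6 year old neutered male Labrador gave 3 portions of visceral fat of about 20 g, which companies A, B and C digested by their own procedures. These untreated cells were frozen for 1 month and thawed, with 1 array per company. The labels do not say whether the 2 arrays of a dog and condition were prepared separately. The p-values therefore cover the spread of these arrays alone, which may be technical.

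The arrays of dogs 2 and 3 read stromal, endothelial and leukocyte genes, and adipocyte genes as well. The lowest values over these 8 arrays were 13.3 for DCN and 13.6 for LUM, matrix proteoglycans, 9.72 for PDGFRA, a stromal receptor, 11.5 for PECAM1, an endothelial adhesion molecule, and 8.57 for PTPRC, the pan-leukocyte phosphatase. Adipocyte genes, which a fraction free of adipocytes would largely lack, were high in the SVF arrays. PLIN4, a lipid droplet protein, read 11.7 to 12.9, ADIPOQ, the hormone adiponectin, 11.4 to 12.7, and LEP, the hormone leptin, 10.7 to 11.9. Array medians lay between 6.76 and 6.85. The number of arrays limits the precision. In bulk cells, fewer cells of a type and less RNA per cell cannot be told apart. PSMA8 and PSMB11, known from other mammals as testis and thymus subunits, and PSMC3IP read below the array medians, with levels of 2.86 to 3.50, 5.28 to 5.90 and 4.71 to 5.04. Signal over background was not measured.

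The first question was how proteasome genes differed after PRP with incubation. Most had slightly higher means: 41 of 46 were higher, against 47.4% of all genes, and the median difference was 0.19 log2 units, against -0.014 over all genes. Differences at or above 0.19 were found in 19.1% of all genes. No single gene passed the test (limma, adjusted p of 0.05 over all 32391 features), which called 0.00617% of features, or 0.00627% of genes higher and 0% lower. The smallest adjusted p was 0.438. At an unadjusted p below 0.05 there were 8 higher (17.4%) and 0 lower, beside 3.11% and 5.21% of all genes. The standard error of a single gene's difference was between 0.12 and 0.23. Beside this difference, array medians were lower after PRP (6.76 to 6.77) than before (6.80 to 6.85). After centring the arrays on their medians, 44 proteasome genes were higher, against 61.5% of all genes.

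**Figure D1:**
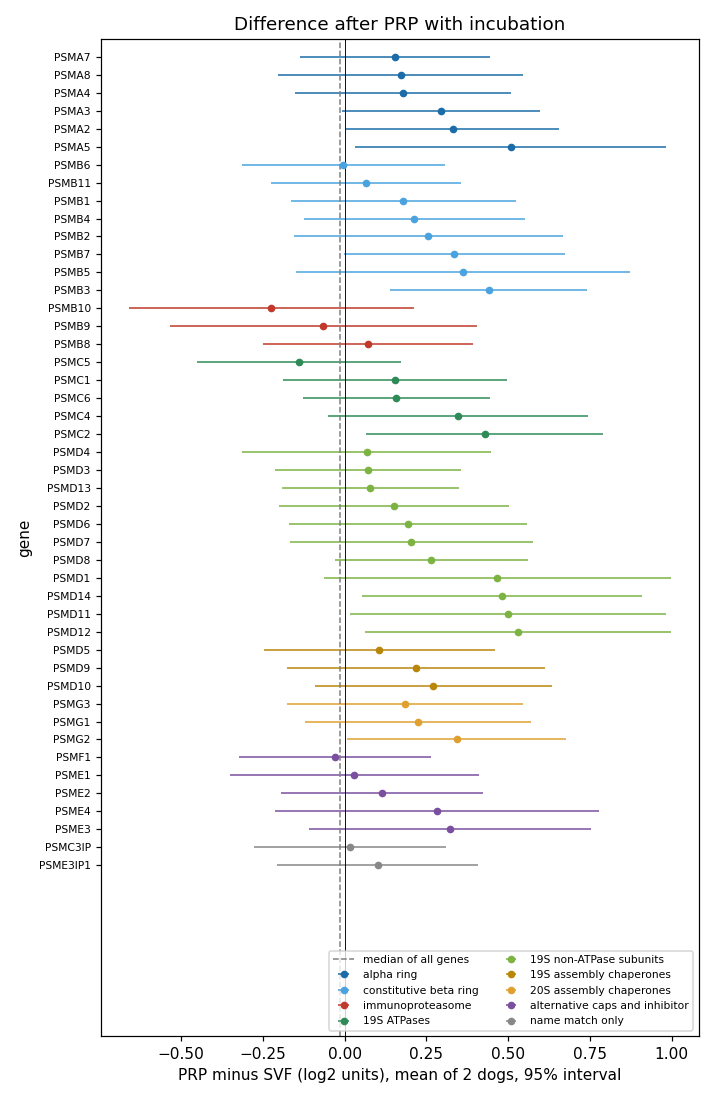
PRP minus SVF in log2 units (horizontal axis) for the 46 genes (vertical axis), averaged over 2 dogs, with 95% intervals from limma; the dashed line is the median of all genes (-0.014). Points lie between -0.22 (PSMB10) and 0.53 (PSMD12), and 2 of the 3 immunoproteasome genes lie below 0.

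Among the alpha ring genes, all 6, the dim PSMA8 included, had higher means (0.15 to 0.51, median 0.24). PSMA5 stood at 8.65 and 8.59 in the SVF arrays of dog 2 and at 8.93 and 9.47 after PRP. In dog 3 it stood at 9.13 and 8.91 before and at 9.10 and 9.83 after. The groups were apart in dog 2 and overlapped in dog 3, where the second PRP array alone lay above both SVF arrays. The mean difference was 0.51 ± 0.20 (SE, limma, adjusted p = 0.506), and it was 0.33 without the second PRP array of dog 3. PSMA2 differed by 0.33 ± 0.14 and PSMA3 by 0.30 ± 0.13 (SE).

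In the beta ring outside the immunoproteasome, the dim thymus subunit PSMB11 included, 7 of 8 genes had higher means (median 0.23). PSMB3, a structural subunit without a proteolytic site, had the smallest p of all 46 genes. It read 10.42 and 10.49 in SVF and 10.94 and 10.93 after PRP in dog 2, and 10.74 and 10.37 in SVF and 10.93 and 10.97 after PRP in dog 3. Both PRP arrays were above both SVF arrays in each dog. The difference was 0.44 ± 0.13, or 1.36-fold (95% interval 0.14 to 0.74 log2 units, limma, adjusted p = 0.438). PSMB1, PSMB2 and PSMB4, the other structural subunits, differed by 0.18, 0.26 and 0.21.

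The 3 constitutive catalytic subunits follow, and their differences were not tested against each other. PSMB7, the trypsin-like subunit, read 8.50 and 8.64 in SVF and 8.76 and 9.09 after PRP in dog 2, and 8.94 and 8.81 against 9.01 and 9.37 in dog 3. The PRP arrays were again above the SVF arrays in both dogs (difference 0.34 ± 0.14, limma, adjusted p = 0.530). PSMB5, the chymotrypsin-like subunit, read 9.68 and 9.18 in SVF and 9.65 and 9.57 after PRP in dog 2, and 9.84 and 8.98 against 9.81 and 10.09 in dog 3. Its SVF arrays were far apart in each dog and overlapped those after PRP (0.36 ± 0.22, limma, adjusted p = 0.623). The difference was 0.15 without the second SVF array of dog 3 and 0.58 without the first, and 0.24 without the second SVF array of dog 2. PSMB6, the caspase-like subunit, read 8.17 and 8.40 in SVF and 8.48 and 8.46 after PRP in dog 2, and 8.45 and 8.60 against 8.49 and 8.17 in dog 3. It leaned upwards in dog 2 and downwards in dog 3, with a mean difference of -0.0033 ± 0.13 (SE, limma, adjusted p = 0.995).

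The immunoproteasome genes had a median difference of -0.065, against 0.20 for the other 43 genes, and the gap between these medians was not tested. The sign of the first was not stable, since it was 0.0087 after array centring and 0.080 without the first SVF array of dog 3. PSMB8 read 8.51 and 8.33 in SVF and 8.76 and 8.47 after PRP in dog 2, and 8.75 and 8.45 against 8.59 and 8.52 in dog 3. PSMB9 read 9.31 and 9.56 against 9.64 and 9.25 in dog 2, and 9.82 and 9.24 against 9.66 and 9.11 in dog 3. The groups of both genes overlapped in each dog. PSMB10 read 7.93 and 8.57 against 8.26 and 7.95 in dog 2, and 7.79 and 8.21 against 7.73 and 7.65 in dog 3, where both PRP arrays were below both SVF arrays. The differences were 0.071 ± 0.14 for PSMB8, -0.065 ± 0.20 for PSMB9 and -0.22 ± 0.19 for PSMB10 (SE, limma, adjusted p = 0.885, 0.933 and 0.717). The 95% intervals ran from -0.25 to 0.39, from -0.54 to 0.41 and from -0.66 to 0.21 log2 units. For PSMB10 the difference was -0.38 without the first SVF array of dog 2, -0.064 without the second, -0.15 without the second PRP array of that dog and -0.12 without the second SVF array of dog 3.

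**Figure D2:**
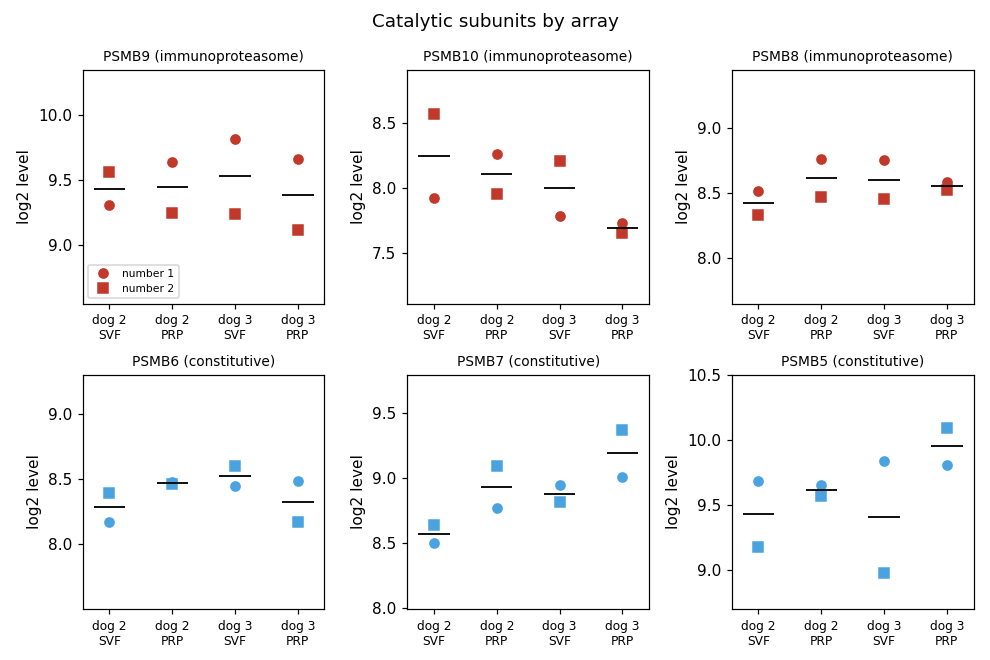
Log2 level (vertical axis, spanning the same number of units in each panel) of the 3 immunoproteasome subunits (top) and of the constitutive subunit each replaces (bottom) in the 4 groups of dogs 2 and 3. Circles and squares are the arrays numbered 1 and 2, and bars are group means; both PSMB7 arrays after PRP lie above both SVF arrays in each dog, and the PSMB8 and PSMB9 arrays overlap.

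Ratios to the subunit each replaces were also taken. The log2 ratio of PSMB10 to PSMB7 differed by -0.50 in dog 2 and -0.62 in dog 3, and the arrays were apart in dog 3 only. The arrays numbered 2 carried these means. Between arrays numbered 1 the ratio differed by 0.069 in dog 2 and -0.12 in dog 3, and between those numbered 2 by -1.07 and -1.11. PSMB8 to PSMB5 differed by 0.0087 and -0.59, and PSMB9 to PSMB6 by -0.18 and 0.054. These ratios carry no test. In untreated cells alone, PSMB10 to PSMB7 read -0.57 and -0.069 on the SVF arrays of dog 2 and -1.15 and -0.60 on those of dog 3. The SVF arrays of a dog were thus about as far apart as the conditions. A ratio compares 2 genes within an array, and which partner differed is read from the genes themselves. Between arrays numbered 2, PSMB10 differed by -0.61 and -0.56 in dogs 2 and 3 and PSMB7 by 0.46 and 0.56. Between arrays numbered 1, PSMB10 differed by 0.33 and -0.056 and PSMB7 by 0.27 and 0.066. PSME1 and PSME2, whose products form the interferon-inducible PA28 cap, differed by 0.030 ± 0.16 and 0.12 ± 0.13 (SE, limma, adjusted p = 0.964 and 0.796). PSME1 read 9.11 and 9.63 in SVF and 9.47 and 9.44 after PRP in dog 2, and 9.45 and 9.13 against 9.38 and 9.15 in dog 3. PSME2 read 10.13 and 10.28 against 10.52 and 10.27, and 10.23 and 10.18 against 10.39 and 10.11. The groups of both genes overlapped in each dog. Leaving out 1 array at a time gave 0.044 to 0.19 for PSME2.

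In the 19S cap, 4 of 5 ATPase genes and all 11 non-ATPase genes had higher means, with medians of 0.16 and 0.20. PSMC2 read 9.78 and 9.88 in SVF and 10.22 and 10.38 after PRP in dog 2, and 10.12 and 9.77 against 10.11 and 10.56 in dog 3 (0.43 ± 0.15, limma, adjusted p = 0.488). PSMC5 went the other way, by -0.14 ± 0.13 (SE, limma, adjusted p = 0.755), or -0.070 without the second SVF array of dog 3. It read 8.67 and 8.87 against 8.66 and 8.91 in dog 2, where the groups overlapped, and 8.70 and 8.98 against 8.51 and 8.58 in dog 3, where they did not.

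The non-ATPase genes with the widest differences were PSMD12, PSMD11, PSMD14 and PSMD1. PSMD14 encodes the deubiquitinase that cuts the ubiquitin chain from a substrate entering the cap. It read 8.42 and 8.08 in SVF and 8.60 and 8.63 after PRP in dog 2, and 8.78 and 8.22 against 8.87 and 9.34 in dog 3 (0.48 ± 0.18, limma, adjusted p = 0.500). PSMD11, a lid subunit, read 9.32 and 9.22 against 9.44 and 9.97, and 9.56 and 9.31 against 9.61 and 10.37 (0.50 ± 0.21, limma, adjusted p = 0.520). Without the second PRP array of dog 3 its difference was 0.31. PSMD12, its neighbour in the lid, read 10.27 and 10.17 against 10.53 and 10.93, and 10.50 and 9.86 against 10.47 and 10.99 (0.53 ± 0.20, limma, adjusted p = 0.499). In all 3 genes the second PRP array of dog 3 was the highest of the 8. PSMD1, a base scaffold subunit, differed by 0.47 ± 0.23 (SE). The other 7 non-ATPase genes differed by 0.067 to 0.27.

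All 6 assembly genes had higher means. PSMG1, PSMG2 and PSMG3, chaperones of the 20S core, differed by 0.22, 0.34 and 0.18. PSMD5, PSMD9 and PSMD10, chaperones of the 19S base, differed by 0.11, 0.22 and 0.27. A second feature of PSMD5 gave 0.42 ± 0.15 (SE). A second feature of PSMD4, a ubiquitin receptor, gave -0.037, against 0.067 for the one used. PSME3 and PSME4, nuclear caps that work without ubiquitin, differed by 0.32 ± 0.18 and 0.28 ± 0.21 (SE). PSMF1, an inhibitor of the core, differed by -0.029 ± 0.13 (SE), and PSMC3IP and PSME3IP1, the name matches, by 0.017 and 0.10.

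Few genes kept the conditions apart in every array. In both dogs, the PRP arrays were above the SVF arrays without overlap for 5 of the 46 genes (PSMB3, PSMB7, PSMD11, PSMD14 and PSMG2), which is 10.9%, against 5.15% of all genes. For 0 genes did they lie below in both dogs, against 8.42%. In dog 2 alone 28 genes were above, against 19.6% of all genes, and in dog 3 alone 7, against 10.2%. The count in both dogs depended on scaling, at 16 after array centring (10.7% of all genes). Leaving out an array can only keep or raise it, as fewer arrays need to separate. It was 22 without the first SVF array of dog 3 (12.7% of all genes), 17 without the first PRP array of dog 3 (10.4%) and 8 without the second (8.82%).

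**Figure D3:**
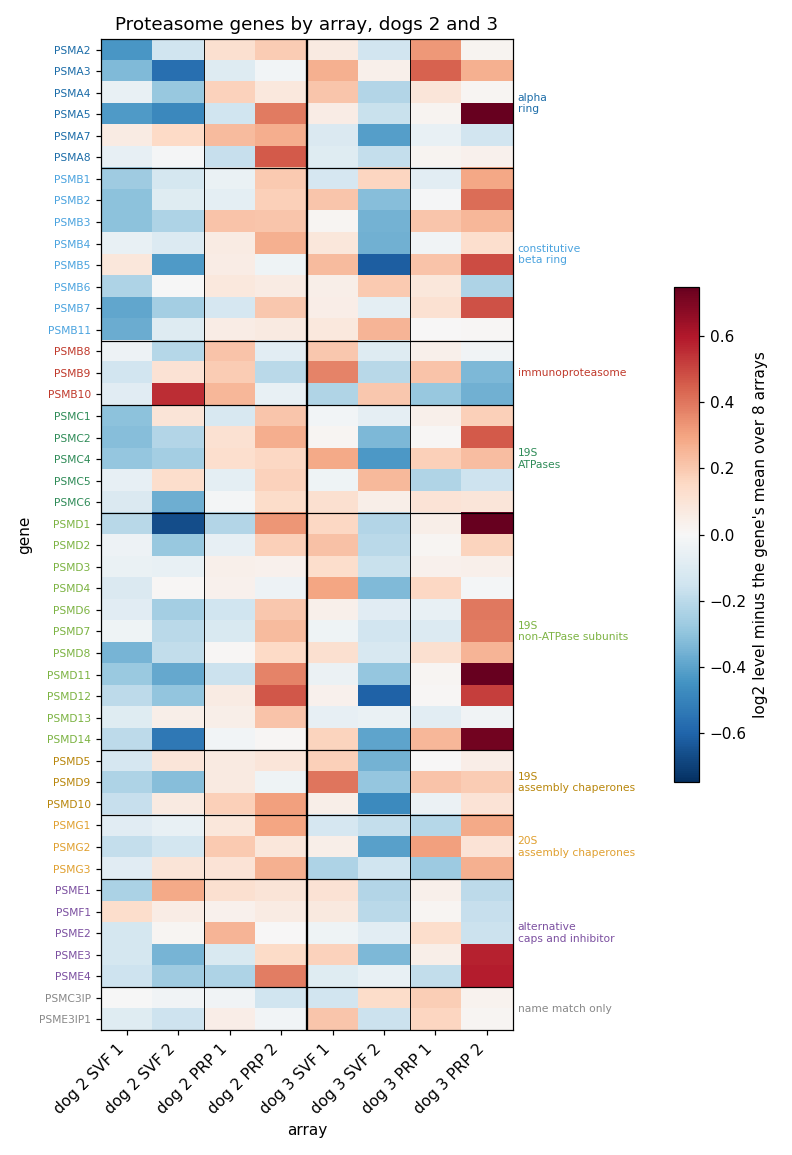
Log2 level of each gene (rows, grouped by role) on each array of dogs 2 and 3 (columns), minus the gene's mean over the 8 arrays; red is higher and blue lower, with the colour scale ending at -0.75 and 0.75. Of the 46 genes, 3 and 13 were above their own mean on SVF arrays 1 and 2 of dog 2 and 28 and 37 after PRP, and in dog 3 these counts were 32 and 8 in SVF and 33 and 35 after PRP.

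The difference was wider between the arrays numbered 2 than between those numbered 1, most of all in dog 3. As the median over the 46 genes of the deviation from each gene's mean, SVF arrays 1 and 2 stood at -0.14 and -0.14 in dog 2 and at 0.060 and -0.18 in dog 3. PRP arrays 1 and 2 stood at 0.047 and 0.17 in dog 2 and at 0.035 and 0.15 in dog 3. The first SVF array of dog 3 stood slightly above the first PRP array of either dog. The pooled spread of these medians within a group was 0.10 (SD, n = 2 per group). The 2 SVF arrays of dog 3 differed by a median of -0.29 over the 46 genes (second minus first), against -0.094 over all genes, which is wider than the PRP difference itself.

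Between arrays of the same number, the median PRP difference of the 46 genes was 0.19 (number 1) and 0.33 (number 2) in dog 2. In dog 3 it was -0.051 (number 1) and 0.37 (number 2). Over all genes these medians were 0.034, 0.010, -0.067 and -0.028. PRP was higher in 36, 40, 14 and 39 of the 46 genes, against 55.8%, 51.5%, 35.5% and 47.3% of all genes. In the first pair of dog 3 the proteasome genes were therefore at the level of genes at large. PSMD12, PSMD14 and PSMD11 differed by 0.26, 0.18 and 0.12 in the first pair of dog 2, by 0.76, 0.55 and 0.76 in the second, by -0.025, 0.085 and 0.058 in the first pair of dog 3 and by 1.12, 1.12 and 1.06 in the second. PSMB10 differed by 0.33, -0.61, -0.056 and -0.56 in the same order of pairs. For 10 genes PRP was higher in all 4 pairs, against 12% of all genes. Of the 46 genes, 24 had a larger difference in the second pair than in the first in both dogs, against 33.5% of all genes.

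**Figure D4:**
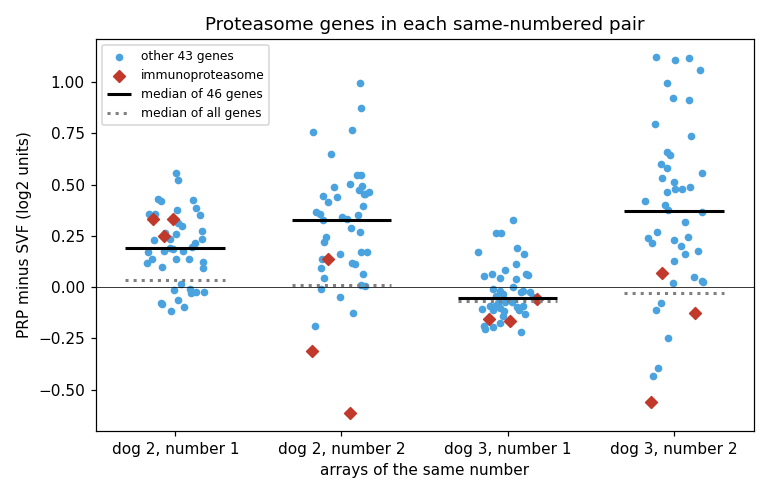
PRP minus SVF in log2 units (vertical axis) for each of the 46 genes in the 4 pairs of same-numbered arrays (horizontal axis). Bars are the median of the 46 genes (0.19, 0.33, -0.051 and 0.37 from left to right), dotted bars that of all genes, and diamonds the 3 immunoproteasome genes.

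Marker lists of other cell types also differed in their means between the conditions. Of 24 leukocyte markers, 22 had higher means (median 0.38), and their mean log2 level was 7.85 to 8.92 in the SVF arrays and 8.34 to 9.09 after PRP. By pair, in the order above, their median differences were 0.41, 0.41, 0.092 and 0.38. All 9 adipocyte markers had lower means (median -0.74), with mean log2 levels of 10.5 to 11.7 in SVF and 9.34 to 11.2 after PRP. Of 9 endothelial markers 7 were lower (median -0.30), with mean log2 levels of 9.37 to 11.0 in SVF and 8.68 to 10.8 after PRP. Of 11 stromal markers 7 were lower (median -0.20, 11.1 to 11.7 in SVF and 11.0 to 11.7 after PRP). No marker of these 4 lists passed in limma over all features. Of the 24 leukocyte markers, 3 were higher at an unadjusted p below 0.05, against 3.11% of all genes. By the same limit 6 of 9 adipocyte, 1 of 9 endothelial and 1 of 11 stromal markers were lower, against 5.21% of all genes. With 1 gene each, the endothelial and stromal counts are too small to set against that share. No marker of these lists was listed at 0. Of 6 platelet markers 5 were higher (median 0.11), with mean log2 levels of 7.01 to 7.18 in SVF and 7.51 to 7.79 after PRP. PPBP, a platelet chemokine, was 2.71 higher (limma, adjusted p = 0.0295), while the other platelet markers differed by -0.082 (GP9) to 0.31 (TUBB1). The mean of the platelet list therefore moved mostly through PPBP. The part of cell makeup and of platelet RNA in the proteasome differences was not tested.

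Other genes of the pathway were drawn from lists. Of 15 listed subunits and partners of the proteasome outside the name rule, 12 had higher means (median 0.18). For 5 of them the PRP arrays were above the SVF arrays in both dogs, against 5.15% of all genes. The smallest p values belonged to AKIRIN2, which carries proteasomes into the nucleus (0.43 ± 0.17), TXNL1, a thioredoxin bound to the cap (0.34 ± 0.15), and UCHL5, a cap deubiquitinase (0.29 ± 0.13). None passed (SE, limma, adjusted p = 0.505, 0.536 and 0.538). Of 10 genes of ubiquitin supply and NFE2L1 control, 6 were higher (median 0.083). UBA6 and UBA1, ubiquitin-activating enzymes, differed by 0.37 ± 0.19 and -0.18 ± 0.12, NPLOC4, a cofactor in substrate extraction, by 0.31 ± 0.18 and NFE2L1 by -0.20 ± 0.17 (SE, limma, adjusted p = 0.564, 0.646, 0.613 and 0.710).

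Class I antigen processing genes had no common direction. Of 12 genes 7 were higher (median 0.041), and 0 passed in limma or had an unadjusted p below 0.05. In the RefSeq gene order of the dog, TAP1 lies between PSMB8 and PSMB9, and TAP2 is the neighbour of PSMB8. TAP1 and TAP2, the peptide transporter, differed by -0.075 ± 0.12 and -0.069 ± 0.13 (SE, limma, adjusted p = 0.859 and 0.884). The 3 smallest p values were those of IRF1, an interferon-induced activator of these genes (-0.46 ± 0.23), ERAP2, a peptide trimmer (0.22 ± 0.18), and CANX, a chaperone (0.14 ± 0.12), with adjusted p = 0.555, 0.712 and 0.731 (SE, limma).

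The next question was whether the dogs differed. In dog 2, PRP means were higher for 43 of the 46 genes (53.6% of all genes), with a median difference of 0.25. In dog 3 they were higher for 38 (43.6%), with a median of 0.18. No gene passed in limma within either dog. At an unadjusted p below 0.05, PSMB3 was higher in dog 2 (0.897% of all genes) and 0 genes were lower (1.56%), while in dog 3 there were 0 higher (1.07%) and 0 lower (3.56%). The PRP effect, taken with its sign, was higher in dog 2 than in dog 3 for 31 of the 46 genes, against 60.3% of all genes. In limma the difference between the dogs' effects passed for 0 of the 46 genes, beside 0% of all genes, and had an unadjusted p below 0.05 for 0, beside 0.426% and 0.125% of all genes in the 2 directions. The smallest p values were those of PSMB11 (0.29 in dog 2 and -0.16 in dog 3), PSMB6 (0.19 and -0.19) and PSMC5 (0.018 and -0.30), each with an adjusted p of 1.00 for the difference.

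In untreated cells, 14 of the 46 genes had a higher mean in dog 2 than in dog 3, against 47.6% of all genes. None of the 46 passed in limma, while 0.934% of all genes were called higher in dog 2 and 0.79% lower. At an unadjusted p below 0.05 there was 1 gene lower in dog 2 (6.52% of all genes) and 0 higher (6.31%). This was PSMA3, an alpha subunit, at 8.39 ± 0.17 in dog 2 and 8.99 ± 0.17 in dog 3 (SD, n = 2 per dog, limma, adjusted p = 0.212). Next came PSMB11, PSMC6 and PSMB7, at -0.40, -0.32 and -0.31 in dog 2 minus dog 3 (limma, adjusted p = 0.444, 0.589 and 0.702). On the other side were PSMA7 at 0.37, PSMB10 at 0.25, PSMG3 at 0.20 and PSMF1 at 0.16 (limma, adjusted p = 0.505, 0.866, 0.875 and 0.877).

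The last question was how thawed SVF of 1 dog differed between the companies. Procedure, portion of fat and array went together and cannot be told apart. With 1 array per company there is no replicate check and no test. Array medians were 5.31, 5.14 and 5.25 for companies A, B and C, well below those of the other 8 arrays, so levels were compared only among the 3. Of the 46 genes, 9 had 1 identical value on all 3 arrays (32.8% of all genes), and 10 were identical on 2 of them (26.9%). Such ties limit what these arrays can show for PSMC2, PSMC6, PSMD9, PSMD11, PSMD12, PSMD14, PSMA3, PSMB11 and PSME3IP1, the 9 that were identical.

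Company B had most constitutive genes a little higher and 2 immunoproteasome genes lower. The median of the 46 genes was 0.27 above company A and 0.042 above company C, against 0 for all genes in both. Tied values, more frequent among all genes than among the 46, set that median at 0. Ties also lower the shares of all genes that read above or below another company. Company B read above company A in 34 genes, against 34.6% of all genes, and below it in 3, against 25.6%. It read above both others in 26 genes, against 28.5% of all genes, and below both in 2, against 19.8%. At 1.5-fold or more, 12 genes were higher than in company A (10.9% of all genes) and 1 lower (9.56%). Against company C 4 were higher (9.76%) and 2 lower (9.46%).

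The 2 genes below both others were PSMB8 and PSMB9. PSMB8 read 7.00 in company A, 5.86 in company B and 7.00 in company C, 2.21-fold lower in B than in either. Its values in A and C were identical. It was the 1 gene at least 2-fold lower, against 5.58% of all genes below company A and 5.91% below company C. PSMB9 read 8.36, 7.87 and 8.59. PSMB10 went the other way, at 5.55, 6.19 and 5.39, and of the 46 genes it was the farthest above company C. Its values in A and C lay little above the array medians of 5.31 and 5.25. The 5.86 of PSMB8 in B stood beside a median of 5.14. Relative to the constitutive subunit each replaces, the log2 ratio in company B minus that in company A was -1.76 for PSMB8 to PSMB5, -1.19 for PSMB9 to PSMB6 and 0.49 for PSMB10 to PSMB7.

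Leukocyte markers, like PSMB8 and PSMB9 and unlike PSMB10, mostly read lowest in company B. Their mean log2 level was 7.14, 4.92 and 7.18 in companies A, B and C. Of the 24 markers, 21 read below company A in company B and 23 below company C, with a median of -2.29 and -2.33. PTPRC read 8.91, 3.37 and 8.36. Endothelial markers averaged 6.13, 4.63 and 6.60 and stromal markers 10.2, 9.95 and 10.2. Adipocyte markers averaged 5.51, 5.03 and 5.97 and platelet markers 5.76, 5.57 and 7.48. Every marker list thus averaged lowest in company B, not the leukocyte list alone. IRF1 read 8.46, 7.05 and 9.69. TAP2 read 5.90 on all 3 arrays and TAP1 8.04, 7.99 and 7.99. The part of these cells in the PSMB8 and PSMB9 values was not tested.

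**Figure D5:**
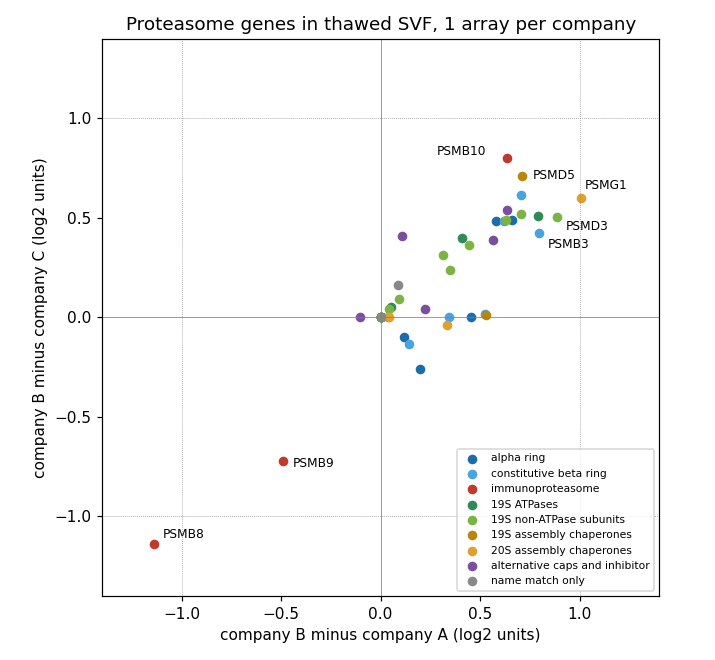
Company B minus company A (horizontal axis) and company B minus company C (vertical axis), in log2 units, for the 46 genes, 1 array per company; colours give the role and dotted lines mark 2-fold. PSMB8 lies at -1.14 on both axes and PSMB9 at -0.49 and -0.72, while most other genes lie at 0 or in the upper right.

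Among the constitutive genes, PSMG1, a core assembly chaperone, was the 1 gene at least 2-fold higher in company B than in company A (4.51% of all genes), at 9.70 against 8.69, with 9.10 in company C. None was 2-fold higher than in company C (3.82%). PSMD3, a lid subunit, PSMB3 and PSMC4, an ATPase, followed, at 0.88, 0.80 and 0.79 above company A. PSMD5 read 7.51 in companies A and C and 8.22 in company B. Companies C and A were closer. None of the 46 genes was 1.5-fold apart between them, against 4.01% of all genes higher and 2.7% lower (at 2-fold, 1.21% and 0.426%), and the median difference was 0.083. PSMD10, a base chaperone, was farthest above company A, at 8.42 against 7.90, and PSME4 farthest below, at 8.25 against 8.55.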

How the data were processed

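Per the labels' protocols, 6 µg of total RNA per sample was biotin-labelled for Affymetrix arrays. The authors deposited log2 values for 32391 features, a scale read from their limits of 1.22 and 14.8. The submitters' processing notes name Partek without a version. How probes were summarized and arrays normalized is not given in the sources used. The company arrays and the arrays of dogs 2 and 3 differ in their medians and were analysed apart, as separately normalized sets. Features were named from the platform annotation. Of the 46 genes, 45 matched the RefSeq table of UU_Cfam_GSD_1.0 by gene identifier and 0 symbols differed.

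Groups came from sample titles. A mean for each of 4 groups was fitted to the 8 arrays (limma 3.58.1, R 4.3.3, lmFit and eBayes, 4 residual degrees of freedom). No filter was set, and p-values were adjusted by Benjamini-Hochberg over every feature. The PRP effect averages the differences of both dogs. The fit was checked on simulated data. The genes and lists were chosen with earlier results of these data known. The genes given array by array are the immunoproteasome and PA28 genes, their constitutive partners, and the members with the smallest p in each direction. For the dogs and companies they are the smallest p values and the largest differences. Of each other list, the 3 genes with the smallest p are named. Further genes, such as PSMG2, PSMA2, PSMD1, NFE2L1, TAP1 and PPBP, were named after their values were seen. Alternatives covered array centring, quantile normalization, a filter on dim features, the choice of feature, eBayes settings, the pairing and leaving out arrays.

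Deviations from the group means of same-numbered arrays correlated, over genes, at 0.395 in dog 2 and 0.241 in dog 3. The numbers were treated as pairs in a further fit, although same-numbered arrays of the same condition correlated more across dogs (0.513 and 0.597). Same-numbered arrays that differed in both dog and condition correlated at 0.239 and 0.306, close to the value within dog 3. These correlations therefore do not settle whether equal numbers mark pairs. No promoter or protein sequences were used here, so a planned motif search was not run.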

Additional observations from a re-analysis of the deposited data

Results flagged for a closer look

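PSMB11, the thymus subunit, had both PRP arrays above both SVF arrays in dog 2 (5.70 and 5.72 against 5.28 and 5.55) and below them in dog 3 (5.65 and 5.66 against 5.73 and 5.90). The effect in dog 2 minus that in dog 3 was 0.45 ± 0.25 (SE), and this difference did not pass (limma, adjusted p = 1.00, unadjusted p = 0.107). All values lay below the array medians. No other of the 46 genes had its arrays apart in opposite directions in the dogs. Groups of 2 arrays were too small for a check of outlying arrays.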

How the results depend on the processing

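No proteasome gene passed in limma for PRP, for the dogs' responses or for untreated dogs under any alternative run for it, including leaving out each array (0 to 0 genes). Taking same-numbered arrays as a replicate block, the PRP count was also 0, the median difference 0.19 and the lowest adjusted p of a named gene 0.269 (PSMB3). Over all alternatives the lowest was 0.166. Leaving out 1 array at a time, the count of genes with arrays apart was 5 to 22, a count that this can only keep or raise. The median difference was then 0.14 to 0.25, the count of higher means 37 to 44 (43.3% to 50.6% of all genes) and the immunoproteasome median -0.20 to 0.080. That median was also 0.0087 with array centring and 0.16 without both number 2 PRP arrays, so its sign is not settled. The count of genes apart was 16 with array centring, 11 with repeated quantile normalization (7.6% of all genes) and 9 without both number 2 PRP arrays (14.5%, with fewer arrays to separate). In that last setting 41 genes had higher means, against 48.7% of all genes.

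Signs of single genes near 0 turned. With array centring PSMB9 was 0.0087, PSMB6 0.070 and PSMF1 0.044, with quantile normalization PSMB6 was 0.030, and without both number 2 PRP arrays PSMB9 was 0.17, PSMB6 0.081 and PSMF1 0.010. Leaving out single arrays gave -0.21 to 0.080 for PSMB9, -0.083 to 0.077 for PSMB6, -0.099 to 0.040 for PSMF1, -0.0036 to 0.15 for PSMB8 and -0.10 to 0.16 for PSME1. Without a change of sign, PSMB10 was -0.38 to -0.064, PSMB5 0.15 to 0.58, PSMD11 0.31 to 0.69 and PSMA5 0.33 to 0.69. Without both number 2 PRP arrays PSMD11 and PSMA5 were 0.18 and 0.19. The cause was not tested.

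Centring the company arrays moved the median of all genes to 0.16 for B minus A and 0.11 for B minus C. The proteasome medians were then 0.43 and 0.15 and the immunoproteasome medians -0.32 and -0.61, against -0.49 and -0.72 as deposited. At 1.5-fold in place of 2-fold, 13 genes in place of 2 were apart between B and A and 6 in place of 1 between B and C.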
